A study of Mus musculus with 12 samples.

Results

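The 43 genes described here encode the machinery that copies DNA and the regulators of the passage from G1 into S phase of the cell cycle. They were taken by gene symbol from the 24532 genes of a count table made from mouse liver RNA, and each of the 43 symbols has a row there. By role they are 5 genes of origin recognition and licensing, the 6 subunits of the MCM helicase, 6 genes of helicase activation, 6 of the sliding clamp and its loader, 6 of the polymerases and primase, 2 of Okazaki fragment joining, 4 of nucleotide supply, 6 of cyclin E and the E2F factors, and 2 of maintenance methylation.

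The table holds 12 livers of mice aged 20 wk, with 4 in each of 3 groups. All mice were of the mixed background C57BL/6x129S6/SvEv. KO_drug livers came from Atp7b-/- mice that received an agonist of the liver X receptor (LXR) in their feed, KO livers from Atp7b-/- mice, and Het livers from heterozygous mice, which serve as the controls and still carry an intact copy of the gene. Atp7b encodes the copper-exporting ATPase of hepatocytes, and its loss is the cause of Wilson disease. The labels give no sex, litter, knockout allele or source of the animals, and no name, dose or duration of the agonist. The p-values below therefore measure the spread among these 12 libraries. The RNA is that of whole liver, so more cells that copy their DNA and more RNA per such cell cannot be told apart.

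Replication starts at sites bound by the origin recognition complex, where Cdc6 and Cdt1 load the ring-shaped MCM helicase during G1. Cyclin E kinase activity then helps to switch the helicase on with Cdc45, GINS and Mcm10, and the polymerases follow. Most of these genes are transcribed under E2F factors, which are held back in resting cells, and hepatocytes of an adult liver are mostly at rest. Mouse hepatocytes can also copy their DNA without dividing, and the repressors E2f7 and E2f8 are known for their part in that polyploidy.

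The letters through which E2F factors are known to bind stand close to a start listed for many of these genes. The shortest sequences that carry this feature come from the RefSeq promoter table (build GRCm38.p6), which matched 34 of the 43 genes by symbol. Its windows run from 250 bases before to 50 bases after a start listed for the gene. For Orc1 and Dnmt1 the window shown lies inside the gene's span, away from its outer end. Capitals mark any of 4 forms of the E2F letters (TTTGGCGC, TTTCCCGC, TTTCGCGC and TTTGCCGC) on either strand, so that the reverse complement is in capitals too, and neighbouring forms can overlap. Stretches are written 5′ to 3′ along the gene. Mcm5 (strand +, chr8:75109299-75109558) and Mcm6 (strand -, chr1:128359656-128359915) are shown over 260 bases because these genes differed most among the MCM subunits between KO and Het livers.
Mcm5: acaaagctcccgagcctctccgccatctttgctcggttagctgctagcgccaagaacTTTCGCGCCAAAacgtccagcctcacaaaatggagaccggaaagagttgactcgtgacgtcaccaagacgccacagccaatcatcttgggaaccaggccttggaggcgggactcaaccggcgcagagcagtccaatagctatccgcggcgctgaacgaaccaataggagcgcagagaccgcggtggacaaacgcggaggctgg
Mcm6: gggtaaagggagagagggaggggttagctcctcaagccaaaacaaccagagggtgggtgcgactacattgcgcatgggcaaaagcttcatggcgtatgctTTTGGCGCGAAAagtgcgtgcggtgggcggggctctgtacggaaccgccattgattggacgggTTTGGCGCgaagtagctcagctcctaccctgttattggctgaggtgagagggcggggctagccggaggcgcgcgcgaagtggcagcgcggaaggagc
Shorter stretches of 60 bases show the same letters in another MCM subunit, Mcm3, and in genes of other roles. The genes are Orc1 (strand +, chr4:108579401-108579460), Cdc6 (strand +, chr11:98907987-98908046), Mcm3 (strand -, chr1:20820263-20820322), Uhrf1 (strand +, chr17:56304102-56304161), Dnmt1 (strand -, chr9:20952809-20952868), E2f7 (strand +, chr10:110745215-110745274), Pola1 (strand -, chrX:93632260-93632319) and Cdt1 (strand +, chr8:122568005-122568064).
Orc1: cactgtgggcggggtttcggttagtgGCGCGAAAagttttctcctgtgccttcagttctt
Cdc6: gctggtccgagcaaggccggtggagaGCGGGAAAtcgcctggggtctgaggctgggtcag
Mcm3: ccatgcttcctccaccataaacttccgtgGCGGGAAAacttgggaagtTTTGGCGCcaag
Uhrf1: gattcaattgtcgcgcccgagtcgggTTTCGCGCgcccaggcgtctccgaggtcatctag
Dnmt1: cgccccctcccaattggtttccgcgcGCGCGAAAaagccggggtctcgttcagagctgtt
E2f7: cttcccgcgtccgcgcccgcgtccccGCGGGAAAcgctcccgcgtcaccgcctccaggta
Pola1: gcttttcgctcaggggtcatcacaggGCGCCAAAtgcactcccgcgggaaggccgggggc
Cdt1: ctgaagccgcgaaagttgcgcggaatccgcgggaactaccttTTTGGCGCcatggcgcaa
For contrast, the stretch of 200 bases from Rrm2 (strand +, chr12:24708104-24708303) holds none of the 4 forms, although Rrm2 is among the genes called higher in KO livers.
Rrm2: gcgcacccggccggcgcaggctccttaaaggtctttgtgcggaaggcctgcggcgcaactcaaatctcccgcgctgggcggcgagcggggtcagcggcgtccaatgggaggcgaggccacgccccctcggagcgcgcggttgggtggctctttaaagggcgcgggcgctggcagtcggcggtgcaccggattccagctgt

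Over the whole window, 16 of the 34 genes with a promoter in the table held at least 1 of the 4 forms (47.1%, Clopper-Pearson 95% interval 29.8 to 64.9%). The share was 4.51% of the 10231 genes tested for expression here that have a promoter, and 2.6% of all 27025 genes of the promoter table. In the mitosis list described further on, 1 of 24 genes held the E2F letters (4.17%), whereas 18 of 24 (75%) held TTTGAA, the letters of the CHR element known from genes of late cell cycle. TTTGAA stood in 7 of the 34 replication genes (20.6%) and in 14.7% of the genes tested. The members were chosen as known replication and E2F genes, so the high share describes them and is no independent test. A match describes letters, not a bound site, and a window without a match says only that these letters are not in it. The last letters of the Mcm10 window are TTTGGCG, which falls short of a full form by its end.

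Library totals lay between 18841560 and 20174103 counts in KO_drug, between 16535938 and 28329751 counts in KO and between 19724743 and 25054822 counts in Het. The targeted gene stood at 2.22 ± 1.11 CPM in KO_drug, 2.09 ± 0.475 CPM in KO and 12.8 ± 2.62 CPM in Het (CPM being read counts per 1e6 of the TMM-scaled library size, mean ± SD, n = 4 each). Within groups, pairs of libraries correlated across genes at 0.958 to 0.987 on the log2 scale. Xist, the RNA of the inactive X chromosome, set apart KO 5 (81.8 CPM) and KO 6 (17.8 CPM), since no other library exceeded 0.425 CPM. The Y-linked Ddx3y was low in KO 5 alone (0.379 CPM, against 64.4 CPM in KO 6). Counts are therefore also given without these 2 libraries. A treated liver also stood apart for the replication genes. KO_drug 1 was the highest of the 4 KO_drug libraries for 34 of the 42 tested members, against 29.3% of all tested genes. It lay within the range of the KO libraries for 30 of the 43. That second count was not made over all genes, so it shows nothing particular to the replication genes. Counts of calls on KO_drug are given with and without it, and a value without it stands beside each gene whose call it changes. KO_drug 1 was singled out by its levels of these same genes, so leaving it out lowers most KO_drug means. The p-values without it describe the dependence on this library and are no independent test.

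Of the replication genes tested, 20 were called higher in KO livers than in Het livers. In a single edgeR quasi-likelihood fit over all 12 libraries, these were 20 of 42, and 1, Mcm10, fell (Benjamini-Hochberg adjusted p under 0.05 over 13379 genes). Of all tested genes, 23% were called higher and 17.7% lower, or 40.7% in either direction. The median log2 change of the members was 0.79, against 0.02 over all tested genes, and 35 of the 42 lay above 0, against 51.3% of all genes. In 20 of the 43 all 4 KO libraries stood above all 4 Het libraries, and 19 of these were among those tested (22.2% of all tested genes). In 4 members all KO libraries stood below all Het libraries (17.1% of all tested genes).

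The filter on low counts left out Orc1, and 4 members (Cdc6, Gins2, E2f7 and Uhrf1) passed it only with their KO libraries. Among the other 38 members, 17 rose and 1 fell in KO. With KO represented by KO 2 and KO 4 alone, 8 members were called higher and 1 lower, against 19.5% and 15.6% of all tested genes, so the share of members called higher was then near the background. The median log2 change was then 0.67 for the members and -0.03 for all tested genes. Calls were lost for 12 members (Cdc6, Cdt1, Mcm2, Mcm3, Cdc45, Rfc5, Prim2, Lig1, Rrm2, Ccne2, E2f7 and Uhrf1). With libraries scaled by total counts in place of TMM, 32 members were called higher and 1 lower (51.6% and 3.44% of all tested genes), but then the median of all genes itself stood at 0.54 and 93.8% of all calls were rises, against 56.5% with TMM.

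**Figure D1:**
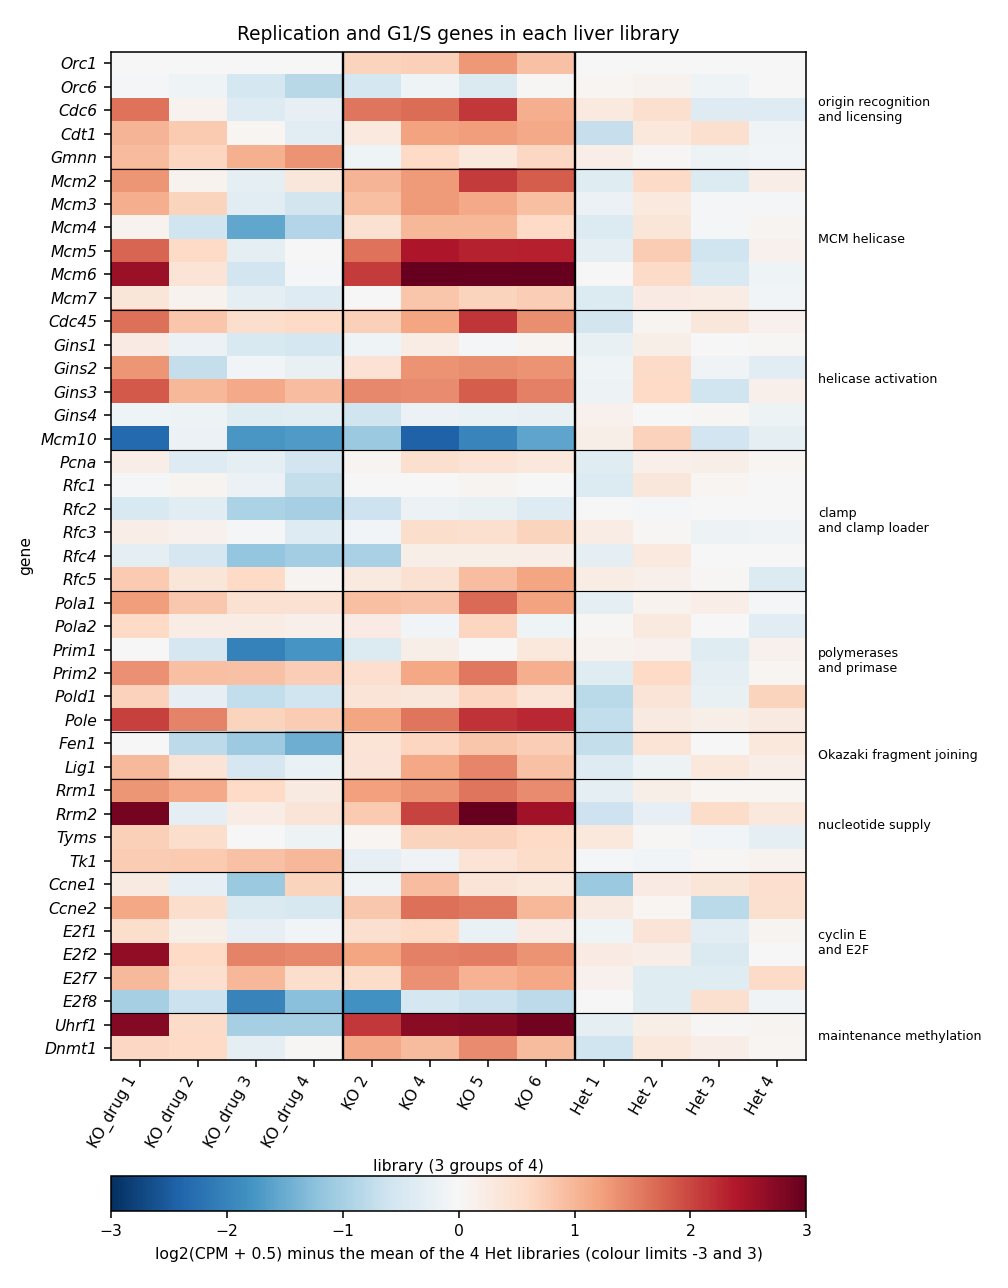
Colour gives log2(CPM + 0.5) minus the mean of the 4 Het libraries for each of the 43 genes (rows, by role) in each of the 12 libraries (columns, with black lines between KO_drug, KO and Het). KO 4, KO 5 and KO 6 are red for most rows, KO_drug 1 resembles them more than KO_drug 2 to 4 do, and Mcm10 is blue in every KO library.

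The livers of a group differed. Per library, the median member stood at a log2 difference of 0.77 from the Het mean in KO_drug 1, 0.20 in KO_drug 2, -0.28 in KO_drug 3 and -0.21 in KO_drug 4. The same median was 0.41 in KO 2, 0.89 in KO 4, 0.96 in KO 5 and 0.81 in KO 6. KO 2 was the lowest KO library for 32 of the 42 tested members (26.2% of all tested genes) and KO 5 the highest for 20 (26%). Among the Het livers, Het 2 was the highest for 22 members (22.4% of all tested genes).

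Feeding the agonist to knockout mice went with lower levels of part of the set. In KO_drug against KO, 7 of 42 members fell (Mcm2, Mcm4, Mcm5, Mcm6, Pcna, Fen1 and Dnmt1) and 2 rose (Gmnn and Tk1). Of all tested genes, 11% were called lower and 8.8% higher, or 19.8% in either direction, so the share of members that fell was not far above the background. The median log2 change was -0.55 for the members and -0.02 for all genes, and 36 of the 42 lay below 0, against 51.5% of all genes. All KO_drug libraries stood below all KO libraries for 4 of the 43, of which 3 were tested (12.5% of all tested genes), and above them for 2 (11.4%).

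These counts depended on single libraries. Without KO_drug 1, 18 members were called lower and 2 higher in KO_drug against KO (12.3% and 9.16% of all tested genes). Since that library was picked for its high levels of these genes, more falls were to be awaited without it. The 11 gained were Cdc6, Mcm3, Mcm7, Gins2, Prim1, Pold1, Lig1, Rrm1, Rrm2, Ccne2 and Uhrf1. Among them, Cdc6, Gins2 and Uhrf1 passed the filter over all 12 libraries only with their KO libraries. A fall of these genes against KO is therefore no independent support. The 3 remaining KO_drug libraries lay below the whole KO range for 20 members (18.3% of all tested genes). Without KO 5 and KO 6 the calls were 2 lower and 2 higher (10.8% and 8.54% of all tested genes). Under total-count scaling 18 members were called lower and 0 higher, against 29.2% and 2.65% of all tested genes (25 members in either direction at an unadjusted p under 0.05), the median of all genes moved to -0.36, and 8.32% of all calls were rises, against 44.3% with TMM.

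Treated knockout livers also differed from Het livers in part of the set. In KO_drug against Het, 8 members were called higher (Gmnn, Tk1, Gins3, Pola1, Prim2, Pole, Rrm1 and E2f2) and 3 lower (Mcm10, Rfc2 and E2f8). Of all tested genes 13% were called higher and 8.45% lower, or 21.4% in either direction, so neither share of members was far from the background. The median log2 change was 0.36 for the members and 0.00 for all genes. The groups did not overlap for 9 members with KO_drug higher (13.6% of all tested genes) and for 2 with KO_drug lower (11%). Without KO_drug 1, 5 members were called higher (Gmnn, Tk1, Gins3, Rrm1 and E2f2) and 4 lower (Mcm4, Prim1, Fen1 and Rfc2), against 10.4% and 6.24% of all tested genes, so the share called higher was then near the background. Total-count scaling gave 9 higher and 0 lower, against 18.2% and 3.73% of all tested genes (16 members in either direction at an unadjusted p under 0.05), with a median of 0.18 over all genes and 83% of all calls as rises, against 60.6% with TMM. Both comparisons with KO livers share the KO libraries, and both comparisons with Het livers share the Het libraries.

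**Figure D2:**
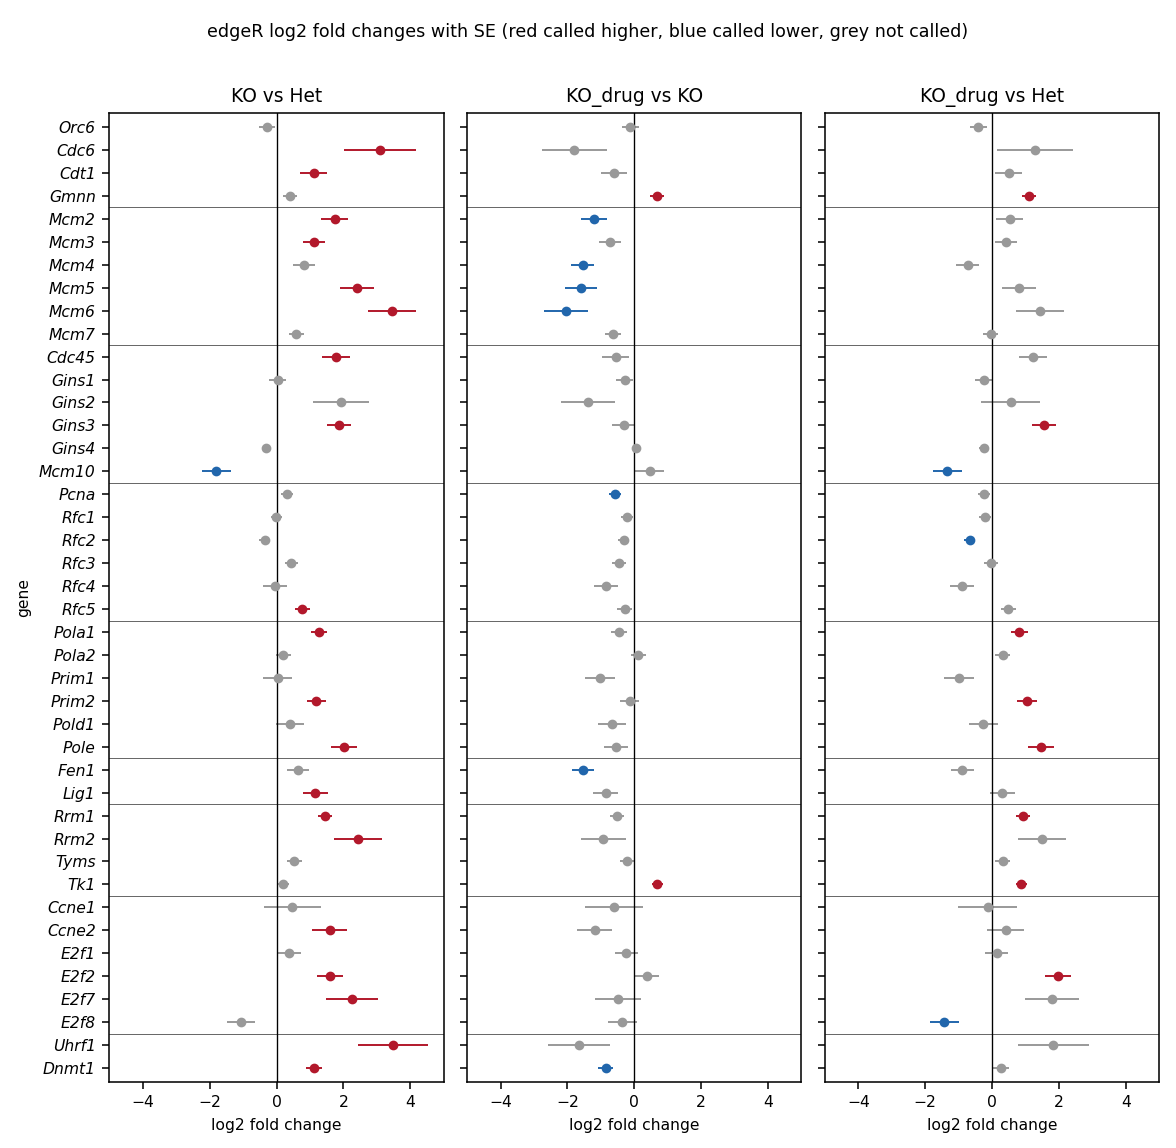
Points are edgeR log2 fold changes with their SE for the 42 tested members (rows, by role) with a panel for each comparison (KO vs Het, then KO_drug vs KO, then KO_drug vs Het). Red points passed the test as higher, blue as lower and grey did not pass, with 20 red points in the first panel, 7 blue points in the middle panel and 8 red points in the last.

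Across the 3 comparisons, 4 members (Mcm2, Mcm5, Mcm6 and Dnmt1) were called higher in KO than in Het and lower in KO_drug than in KO. Another 6 (Gins3, Pola1, Prim2, Pole, Rrm1 and E2f2) were called higher in both knockout groups than in Het and not called between KO_drug and KO. Gmnn and Tk1 were called higher in KO_drug than in either other group. Mcm10 was called lower in both knockout groups, and 14 of the 42 were not called in any comparison.

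Among the genes that license origins, Orc1, the ATPase subunit of the origin recognition complex, was counted only in KO livers. It had 10, 7, 25 and 10 counts in KO 2, 4, 5 and 6, and 0 counts in every KO_drug and every Het library. Set against a floor of 3 counts over a group, that is at least 11.8-fold higher in KO than in Het and at least 11.6-fold lower in KO_drug than in KO, bounds that cover counting error only. KO_drug 1, which resembled KO livers for other genes, thus had no Orc1 count. The gene was below the filter, and in an edgeR fit without a filter it was called in both comparisons (adjusted p = 0.00922 for KO vs Het and 0.0206 for KO_drug vs KO). Its span overlaps that of Prpf38a. Orc6, another subunit, was at 2.50 ± 0.731 CPM in KO_drug, 2.73 ± 0.582 in KO and 3.33 ± 0.248 in Het (mean ± SD, n = 4 each) and was not called in any comparison.

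Cdc6, which loads the helicase together with Cdt1, was 8.49-fold higher in KO relative to Het (log2 3.09, SE 1.08, adjusted p = 0.0358). Its level was 1.51, 0.208, 0 and 0.0531 CPM in KO_drug 1 to 4, 1.5, 1.59, 2.33 and 0.887 CPM in KO 2, 4, 5 and 6, and 0.309, 0.416, 0 and 0 CPM in Het 1 to 4. All KO libraries lay above all Het libraries, KO_drug 1 lay among the KO libraries, and KO_drug 2 to 4 lay within the Het range, and the difference between KO_drug and KO did not pass the test (log2 -1.80, SE 0.97, adjusted p = 0.212). Without KO_drug 1 it did (log2 -4.07, adjusted p = 0.0173). The KO vs Het call was lost without KO 5 and KO 6 (log2 2.99, adjusted p = 0.0983) and on leaving out KO 2, KO 4, KO 5, Het 1, Het 3 or Het 4 alone. Cdt1 was 2.93 ± 1.43 CPM in KO_drug, 4.47 ± 1.32 CPM in KO and 2.07 ± 0.835 CPM in Het, and was called higher in KO relative to Het (log2 1.11, SE 0.40, adjusted p = 0.0406). Its groups overlapped, with KO 2 at 2.52 CPM below Het 2 and Het 3, and the call was lost without KO 5 and KO 6 (log2 0.81, adjusted p = 0.232) and on leaving out KO 4, KO 5, KO 6, Het 1, Het 2 or Het 4 alone.

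Gmnn encodes geminin, the protein that binds Cdt1 and blocks relicensing. Gmnn and Tk1 were the 2 members called higher in KO_drug against KO. Its level was 9.49, 7.66, 10.4 and 12.7 CPM in KO_drug 1 to 4, 4.22, 7.37, 5.98 and 7.52 CPM in KO 2, 4, 5 and 6, and 5.47, 4.78, 4.18 and 4.39 CPM in Het 1 to 4. Every KO_drug library stood above every KO and every Het library. The change was 1.61-fold for KO_drug against KO (log2 0.69, SE 0.21, adjusted p = 0.0357) and 2.14-fold for KO_drug against Het (log2 1.10, SE 0.21, adjusted p = 0.00261), while KO and Het did not pass (log2 0.41, SE 0.21, adjusted p = 0.139). KO was called higher than Het without KO 2 (log2 0.56, adjusted p = 0.0393) and with total-count scaling (log2 0.92, adjusted p = 0.00605). With total-count scaling KO_drug against KO was no longer called (log2 0.35, adjusted p = 0.275), and the same held on leaving out KO 2, KO 5, KO_drug 3 or KO_drug 4.

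The MCM helicase showed the widest swing of the roles with more than 2 members. Mcm2 to Mcm7 encode the 6 subunits of 1 ring, and their summed level was 51.1, 29.0, 17.3 and 19.1 CPM in KO_drug 1 to 4, 43.3, 70.3, 74.5 and 69.1 CPM in KO 2, 4, 5 and 6, and 19.3, 33.1, 24.8 and 24.9 CPM in Het 1 to 4. KO_drug 1 was in the KO range, KO_drug 2 was in the Het range and KO_drug 3 and 4 were below the lowest Het library. In KO against Het, 4 of the 6 rose (median log2 1.43), and in KO_drug against KO 4 fell (median log2 -1.38). In KO_drug against Het their adjusted p-values ran from 0.159 to 0.918, and without KO_drug 1 Mcm4 was called lower (log2 -1.16, adjusted p = 0.0230).

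Mcm6 moved furthest. It stood at 8.88, 1.56, 0.552 and 1.01 CPM in KO_drug 1 to 4, 6.22, 12.7, 15.6 and 15 CPM in KO 2, 4, 5 and 6, and 1.08, 1.82, 0.635 and 0.918 CPM in Het 1 to 4. The KO and Het libraries did not overlap, and KO_drug 1 stood apart from the other 3 treated livers, which were at Het levels. Mcm6 was 11-fold higher in KO relative to Het (log2 3.46, SE 0.72, adjusted p = 0.00217). Treated livers were 4.09-fold lower than KO (log2 -2.03, SE 0.66, adjusted p = 0.0453). Without KO_drug 1 the log2 change of KO_drug against KO was -3.55, adjusted p = 0.000650. Without KO 5 and KO 6 it was -1.61, adjusted p = 0.183, and the change of KO against Het was 3.02, adjusted p = 0.0158. The fall in KO_drug was also lost on leaving out any of KO 4, KO 5, KO 6, KO_drug 2, KO_drug 3 or KO_drug 4 alone.

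Mcm5 stood at 6.41, 2.61, 1.16 and 1.54 CPM in KO_drug 1 to 4, 5.81, 10.5, 9.66 and 9.85 CPM in KO 2, 4, 5 and 6, and 1.19, 2.96, 0.847 and 1.73 CPM in Het 1 to 4. KO was 5.30-fold higher than Het with no overlap (log2 2.41, SE 0.50, adjusted p = 0.00222), and KO_drug was 3.04-fold lower than KO (log2 -1.60, SE 0.48, adjusted p = 0.0331), with KO_drug 1 above the lowest KO library. Mcm2 stood at 6.76, 2.61, 1.88 and 3.19 CPM in KO_drug 1 to 4, 5.40, 6.53, 11.8 and 9.72 CPM in KO 2, 4, 5 and 6, and 1.75, 3.79, 1.69 and 2.81 CPM in Het 1 to 4. It was 3.33-fold higher in KO relative to Het (log2 1.74, SE 0.40, adjusted p = 0.00433). Treated livers were 2.32-fold lower than KO (log2 -1.21, SE 0.39, adjusted p = 0.0461). Both lower calls were lost without KO 5 and KO 6 (log2 -1.43, adjusted p = 0.117 for Mcm5 and -0.68, adjusted p = 0.330 for Mcm2), and so was the call of Mcm2 in KO against Het (log2 1.18, adjusted p = 0.0625). For both genes the fall in KO_drug was lost as well on leaving out KO 4, KO 5, KO 6, KO_drug 2, KO_drug 3 or KO_drug 4.

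Mcm4 fell in KO_drug against KO, while its difference between KO and Het did not pass the test. It stood at 4.59, 2.66, 1.10 and 2.07 CPM in KO_drug 1 to 4, 6.01, 8.91, 8.93 and 6.72 CPM in KO 2, 4, 5 and 6, and 3.04, 5.61, 4.13 and 4.54 CPM in Het 1 to 4. KO_drug was 2.92-fold lower than KO with no overlap (log2 -1.55, SE 0.34, adjusted p = 0.00846), and the call held without KO 5 and KO 6 (log2 -1.47, adjusted p = 0.0303) and without KO_drug 1 (log2 -1.97, adjusted p = 0.00180). KO stood above Het in every library but missed the threshold (log2 0.82, SE 0.33, adjusted p = 0.0659). Mcm3 rose in KO (9.92 ± 1.30 against 4.54 ± 0.740 CPM in Het, log2 1.13, SE 0.33, adjusted p = 0.0144) and was at 6.00 ± 3.41 CPM in KO_drug, which was not called against KO (log2 -0.72, SE 0.32, adjusted p = 0.131). It was called lower there without KO_drug 1 (log2 -1.09, adjusted p = 0.0201) and with total-count scaling (log2 -1.06, adjusted p = 0.0278). The rise of Mcm3 was lost without KO 5 and KO 6 (log2 1.11, adjusted p = 0.0528). Mcm7 was at 11 ± 2.77, 17.1 ± 4.13 and 11.3 ± 2.38 CPM in KO_drug, KO and Het and was called in none. Its 95% intervals were 0.10 to 1.08 for KO vs Het and -1.13 to -0.14 for KO_drug vs KO on the log2 scale, and its span overlaps that of Ap4m1. Mcm7 was called lower in KO_drug against KO without KO_drug 1 (log2 -0.79, adjusted p = 0.0335) or without KO 2 (log2 -0.80, adjusted p = 0.0264), and higher in KO against Het without KO 2 (log2 0.75, adjusted p = 0.0151).

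Because the 6 subunits form 1 ring, their levels per length were compared in the authors' FPKM (fragments per kilobase of gene model, scaled to library depth). Mcm7 had the highest FPKM of the 6 in all 12 libraries. The lowest was Mcm6 in KO_drug 2 to 4 and in every Het library, but Mcm2 or Mcm4 in KO_drug 1 and every KO library. The highest FPKM over the lowest was 4.73 in KO_drug 1, between 12.7 and 32.8 in KO_drug 2 to 4, between 2.87 and 4.34 in KO, and between 11.1 and 39.5 in Het. By this ratio, the subunit levels were closer together in the livers in which their sum was high. The ratio rests on Mcm7, whose span overlaps that of Ap4m1. In KO_drug 2 to 4 and Het it also rests on few Mcm6 counts, from 10 in KO_drug 3 to 35 in Het 2.

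**Figure D3:**
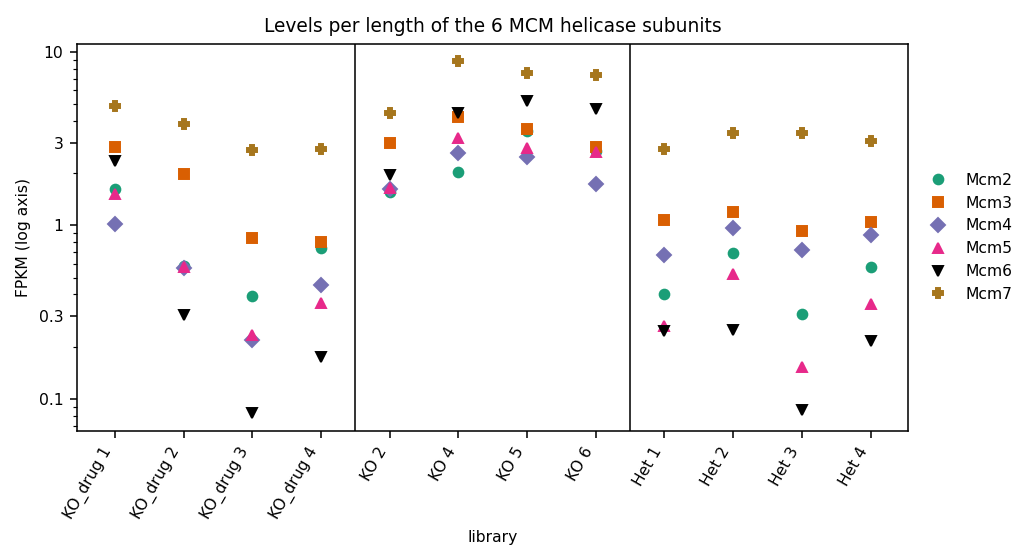
Points are the deposited FPKM (log axis) of Mcm2 to Mcm7 in each of the 12 libraries, with black lines between KO_drug, KO and Het. Mcm6 is the lowest subunit in KO_drug 2 to 4 and Het 1 to 4, and it reaches 5.22 FPKM in KO 5.

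Of the genes that activate the loaded helicase, Cdc45, the subunit that joins the ring with GINS, was 3.44-fold higher in KO relative to Het (log2 1.78, SE 0.42, adjusted p = 0.00483). Its level was 2.58 ± 1.23 CPM in KO_drug, 3.8 ± 1.87 CPM in KO and 1.10 ± 0.386 CPM in Het, and it was not called in KO_drug against KO (log2 -0.56, SE 0.40, adjusted p = 0.349) or against Het (log2 1.22, SE 0.43, adjusted p = 0.0582). The rise in KO was lost without KO 5 and KO 6 (log2 1.15, adjusted p = 0.0679), where KO_drug against Het passed the test (log2 1.2, adjusted p = 0.0496). The GINS complex has 4 subunits that did not move alike. Gins3 rose in KO (log2 1.88, SE 0.36, adjusted p = 0.00128) and was also called higher in KO_drug against Het (log2 1.56, SE 0.36, adjusted p = 0.00796), with 4.79, 2.45, 2.70 and 2.28 CPM in KO_drug 1 to 4, 3.52, 3.41, 4.64 and 3.72 CPM in KO 2, 4, 5 and 6, and 0.825, 1.72, 0.476 and 1.12 CPM in Het 1 to 4. All 8 knockout libraries lay above all 4 Het libraries. Gins2 was near the lowest counts that could be tested, at 0.513 ± 0.711 CPM in KO_drug, 1.37 ± 0.502 CPM in KO and 0.351 ± 0.256 CPM in Het, and was not called (log2 1.94, SE 0.84, adjusted p = 0.0803 for KO vs Het), but without KO_drug 1 it was called lower in KO_drug against KO (log2 -3.03, adjusted p = 0.0187). Gins1 and Gins4 were not called either, with log2 values between -0.30 and 0.05 in the 3 comparisons.

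Mcm10, which is needed to set the assembled helicase in motion, was the 1 member called lower in KO against Het. Its level was 14.5, 66.8, 22.2 and 22.8 CPM in KO_drug 1 to 4, 34.6, 13.6, 18.9 and 24.9 CPM in KO 2, 4, 5 and 6, and 85.9, 122, 51.1 and 61.2 CPM in Het 1 to 4. No KO library reached the lowest Het library, and among the treated livers KO_drug 2 alone lay in the Het range. Its level fell in KO_drug against Het by a factor of 2.53 (log2 -1.34, SE 0.44, adjusted p = 0.0452) and in KO against Het by a factor of 3.47 (log2 -1.80, SE 0.45, adjusted p = 0.00628). The fall in KO held under total-count scaling (log2 -1.28, adjusted p = 0.0206) and without KO 5 and KO 6 (log2 -1.78, adjusted p = 0.0414), while that in KO_drug was lost under both (log2 -1.17, adjusted p = 0.0655 and -1.36, adjusted p = 0.0627) and without KO_drug 1 (log2 -1.11, adjusted p = 0.108). Leaving out KO_drug 3, KO_drug 4, Het 1, Het 2 or Het 4 also ended the call in KO_drug. Per length it was also far above the helicase subunits in Het livers, at 8.29 to 19.5 FPKM, where the highest of Mcm2 to Mcm7 in any Het library was 3.43 FPKM. No annotated gene of the RefSeq table overlaps its span, and which part of the gene the reads cover was not analysed here.

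The clamp and its loader held few calls. Pcna, the ring that tethers polymerases to DNA, stood at 20.1, 13.1, 14.2 and 11.5 CPM in KO_drug 1 to 4, 18.2, 24.5, 23.2 and 21.7 CPM in KO 2, 4, 5 and 6, and 13.4, 19.2, 19.5 and 18.0 CPM in Het 1 to 4. It was 1.49-fold lower in KO_drug relative to KO (log2 -0.57, SE 0.18, adjusted p = 0.0386), with KO_drug 1 inside the KO range, and the call was lost without KO 5 and KO 6 (log2 -0.50, adjusted p = 0.165) or on leaving out KO 4, KO 5, KO 6, KO_drug 2, KO_drug 3 or KO_drug 4. KO and Het did not differ past the threshold (log2 0.32, SE 0.18, adjusted p = 0.164). Of the 5 loader subunits, Rfc5 rose in KO (19.4 ± 5.73 CPM, against 11.4 ± 2.18 CPM in Het, log2 0.77, SE 0.22, adjusted p = 0.0147), a call that was lost without KO 5 and KO 6 (log2 0.31, adjusted p = 0.302). Rfc2 was called lower in KO_drug than in Het, at 12.8 ± 3.13 CPM in KO_drug against 20.4 ± 0.431 CPM in Het (log2 -0.67, SE 0.16, adjusted p = 0.0105). Its Het libraries lay between 19.8 and 20.7 CPM, above all 8 knockout libraries. Rfc1, Rfc3 and Rfc4 were not called in any comparison, but without KO 2 Rfc3 was called higher in KO against Het (log2 0.60, adjusted p = 0.0284) and Rfc4 lower in KO_drug against KO (log2 -1.11, adjusted p = 0.0349). The 95% interval of Rfc1 in KO against Het was -0.38 to 0.38 with TMM, and with total-count scaling Rfc1 was called higher (log2 0.54, adjusted p = 0.0103), a value equal to the shift of the median of all genes under that scaling. Rfc4 overlaps Eif4a2, a far more abundant gene.

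Of the 6 polymerase and primase genes, Pole, Pola1 and Prim2 rose in KO against Het, while Pold1, Prim1 and Pola2 were not called in any comparison. Pole, the catalytic subunit of the leading-strand polymerase epsilon, stood at 11.2, 7.35, 3.97 and 4.30 CPM in KO_drug 1 to 4, 5.87, 8.07, 12.2 and 13.0 CPM in KO 2, 4, 5 and 6, and 1.19, 2.91, 2.70 and 2.91 CPM in Het 1 to 4. Every knockout library, treated or not, was above every Het library. Pole was 4.03-fold higher in KO relative to Het (log2 2.01, SE 0.39, adjusted p = 0.00137) and 2.76-fold higher in KO_drug relative to Het (log2 1.46, SE 0.39, adjusted p = 0.0162), and the second of these calls was lost without KO_drug 1 (log2 1.10, adjusted p = 0.0573). Pold1, the catalytic subunit of the lagging-strand polymerase delta, was at 1.83 ± 1.17, 2.92 ± 0.340 and 2.20 ± 1.13 CPM in KO_drug, KO and Het and was not called. Without KO_drug 1 it was called lower in KO_drug against KO (log2 -1.21, adjusted p = 0.0492).

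Polymerase alpha and primase lay down the first stretch of each new strand. Pola1, the catalytic subunit, was 2.41-fold higher in KO relative to Het (log2 1.27, SE 0.24, adjusted p = 0.00129) and 1.76-fold higher in KO_drug relative to Het (log2 0.82, SE 0.24, adjusted p = 0.0285). It averaged 9.32 ± 2.73 CPM in KO_drug, 12.7 ± 3.8 CPM in KO and 5.28 ± 0.851 CPM in Het, with no overlap of either knockout group with Het. The large primase subunit Prim2 rose alike, 2.28-fold in KO against Het (log2 1.19, SE 0.29, adjusted p = 0.00559) and 2.07-fold in KO_drug against Het (log2 1.05, SE 0.29, adjusted p = 0.0206). The KO_drug calls against Het were lost without KO_drug 1 (log2 0.60, adjusted p = 0.101 for Pola1 and 0.88, adjusted p = 0.0662 for Prim2). That of Pola1 was also lost without KO_drug 2, Het 1, Het 2 or Het 4, and that of Prim2 without Het 1, Het 3 or Het 4. Without KO 5 and KO 6 the rise of Prim2 in KO was lost (log2 0.84, adjusted p = 0.0673). The catalytic primase subunit Prim1 stood at 4.19, 2.87, 0.662 and 0.903 CPM in KO_drug 1 to 4, 3.08, 4.90, 4.29 and 5.41 CPM in KO 2, 4, 5 and 6, and 4.64, 4.68, 3.17 and 4.69 CPM in Het 1 to 4. Both KO_drug 3 and KO_drug 4 were below 1 CPM, but the comparison did not pass the test (log2 -1.03, SE 0.45, adjusted p = 0.125 for KO_drug vs KO). Without KO_drug 1 Prim1 was called lower against KO (log2 -1.57, adjusted p = 0.0212) and against Het (log2 -1.54, adjusted p = 0.0272). Pola2, the accessory subunit of polymerase alpha, was not called, with log2 values of 0.21 in KO vs Het and 0.12 in KO_drug vs KO.

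Of the 2 enzymes that finish Okazaki fragments, Fen1 fell in KO_drug against KO and Lig1 rose in KO against Het. Fen1, the nuclease that trims the flap, stood at 5.45, 2.97, 2.32 and 1.70 CPM in KO_drug 1 to 4, 7.57, 8.91, 10.2 and 9.51 CPM in KO 2, 4, 5 and 6, and 3.20, 7.49, 5.45 and 6.99 CPM in Het 1 to 4. KO_drug was 2.90-fold lower than KO with no overlap (log2 -1.54, SE 0.33, adjusted p = 0.00743), and the call held without KO_drug 1 (log2 -1.95, adjusted p = 0.00154) and without KO 5 and KO 6 (log2 -1.36, adjusted p = 0.0392). All KO libraries lay above all Het libraries, yet the test was not passed (log2 0.65, SE 0.32, adjusted p = 0.126). KO_drug was called lower than Het without KO_drug 1 (log2 -1.31, adjusted p = 0.00925) or without Het 1 (log2 -1.09, adjusted p = 0.0306). Fen1 overlaps Tmem258. Lig1, the ligase that seals the fragments, rose in KO at 4.80 ± 1.61 CPM, against 2.14 ± 0.583 CPM in Het (log2 1.16, SE 0.38, adjusted p = 0.0263), a call that was lost without KO 5 and KO 6 (log2 0.87, adjusted p = 0.163) and on leaving out KO 4, KO 5, Het 1 or Het 2 alone. It was at 2.65 ± 1.46 CPM in KO_drug and was not called against KO (log2 -0.85, SE 0.38, adjusted p = 0.127). Lig1 was called lower there without KO_drug 1 (log2 -1.26, adjusted p = 0.0273) and with total-count scaling (log2 -1.19, adjusted p = 0.0334).

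Nucleotide supply held the rise with the smallest adjusted p of the 42 tested members in KO against Het. Rrm1, the large subunit of ribonucleotide reductase, stood at 25.8, 22.3, 15.2 and 12.1 CPM in KO_drug 1 to 4, 23.8, 25.9, 31.3 and 27.4 CPM in KO 2, 4, 5 and 6, and 7.99, 11.3, 10.3 and 10.4 CPM in Het 1 to 4. It was 2.71-fold higher in KO relative to Het (log2 1.44, SE 0.21, adjusted p = 0.000220) and 1.89-fold higher in KO_drug relative to Het (log2 0.92, SE 0.21, adjusted p = 0.00764), and in each case the groups did not overlap. Without KO_drug 1 it was called lower in KO_drug against KO (log2 -0.71, adjusted p = 0.0248). Rrm2, the small subunit whose level limits the enzyme in S phase, varied far more between livers. It stood at 21, 1.88, 2.92 and 3.29 CPM in KO_drug 1 to 4, 4.58, 11.3, 23.6 and 16.2 CPM in KO 2, 4, 5 and 6, and 1.39, 1.98, 3.76 and 3.16 CPM in Het 1 to 4. KO_drug 1 stood above every library but KO 5, while the other 3 treated livers lay in the Het range. Rrm2 was 5.41-fold higher in KO relative to Het (log2 2.44, SE 0.73, adjusted p = 0.0167), which was lost without KO 5 and KO 6 (log2 1.56, adjusted p = 0.161), and was not called in KO_drug against KO (log2 -0.93, SE 0.68, adjusted p = 0.360). Without KO_drug 1 it was called lower (log2 -2.37, adjusted p = 0.00734).

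Tk1, the thymidine kinase of dividing cells, rose with treatment like Gmnn. Its level was 25.6, 26.2, 27.6 and 30.0 CPM in KO_drug 1 to 4, 12.4, 13.9, 19.8 and 22.2 CPM in KO 2, 4, 5 and 6, and 14.4, 14.1, 15.2 and 16.0 CPM in Het 1 to 4. All 4 KO_drug libraries lay above all others. The change was 1.60-fold against KO (log2 0.68, SE 0.17, adjusted p = 0.0129) and 1.83-fold against Het (log2 0.88, SE 0.17, adjusted p = 0.00226). With total-count scaling the call against KO was lost (log2 0.35, adjusted p = 0.135). The span of Tk1 overlaps that of Afmid, a gene picked out here after its values were seen, which averaged 246 ± 58.8 CPM in KO_drug, 73.5 ± 19.1 CPM in KO and 175 ± 19.6 CPM in Het. Afmid itself was called higher in KO_drug relative to KO (log2 1.74, SE 0.21, adjusted p = 0.000547) and lower in KO against Het (log2 -1.25, SE 0.21, adjusted p = 0.000562), and its part in the Tk1 counts was not tested. Tyms, thymidylate synthase, was at 10.04 ± 3.04 CPM in KO_drug, 11.7 ± 2.27 CPM in KO and 8.05 ± 1.46 CPM in Het and was not called. In KO against Het it was called higher without KO 2 (log2 0.67, adjusted p = 0.0345) and with total-count scaling (log2 1.04, adjusted p = 0.00419).

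**Figure D4:**
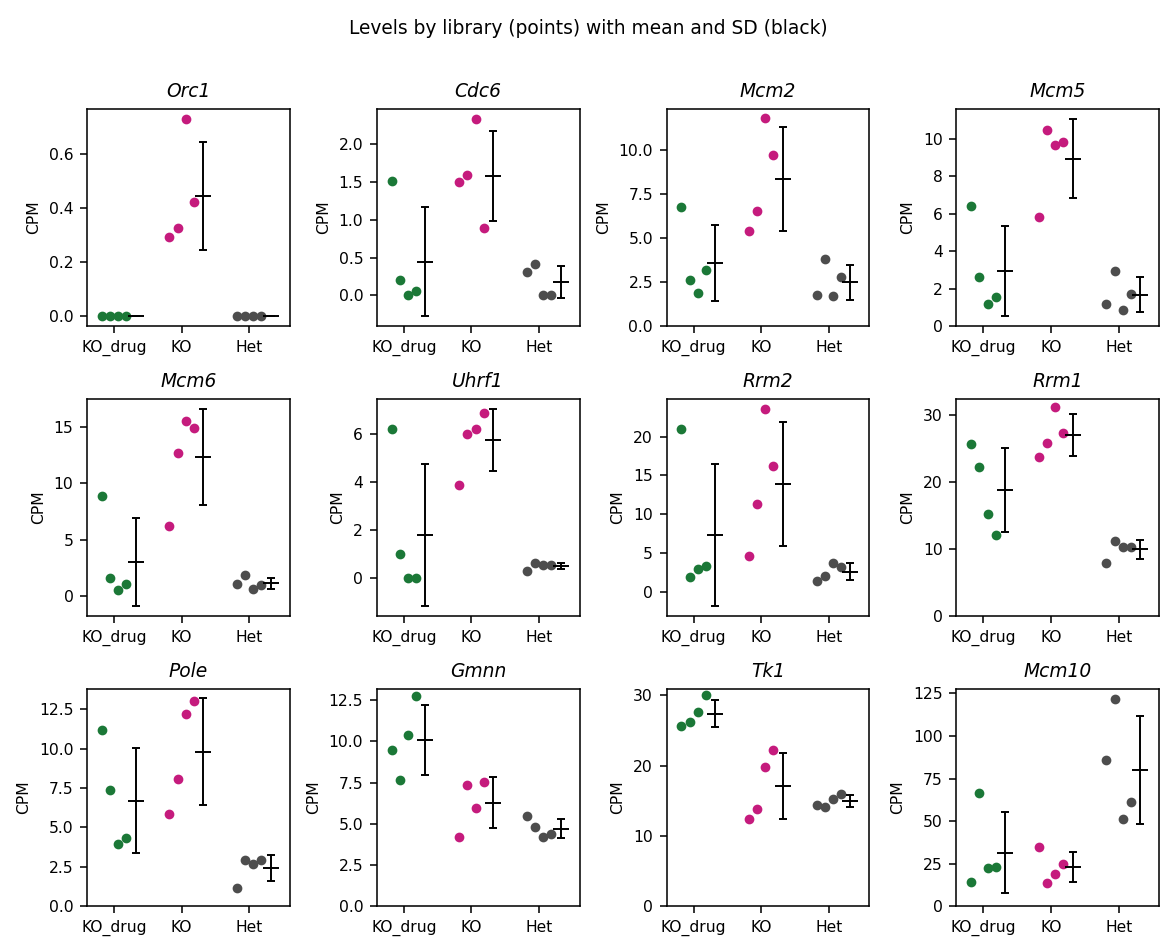
Points are the CPM of 12 of the 43 genes in each library, with KO_drug, KO and Het from left to right, and black marks give the mean and SD of the 4 libraries of a group. The point of KO_drug 1 stands high for Cdc6, Mcm6, Uhrf1 and Rrm2, all KO_drug points are highest for Gmnn and Tk1, and Mcm10 is highest in Het.

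Among the regulators of entry into S phase, the E2F factors did not move together. E2f2, an activator, stood at 13.2, 2.81, 5.63 and 5.42 CPM in KO_drug 1 to 4, 4.46, 5.69, 5.75 and 5.03 CPM in KO 2, 4, 5 and 6, and 2.06, 1.98, 1.11 and 1.68 CPM in Het 1 to 4. It was 3.05-fold higher in KO relative to Het (log2 1.61, SE 0.39, adjusted p = 0.00523) and 3.96-fold higher in KO_drug relative to Het (log2 1.98, SE 0.39, adjusted p = 0.00283), and all 8 knockout libraries lay above all Het libraries. Without KO_drug 1 the second change was 1.43, adjusted p = 0.00441. E2f1, the activator most often named with this pathway, was not called, at 1.44 ± 0.474, 1.71 ± 0.503 and 1.31 ± 0.393 CPM in KO_drug, KO and Het (95% interval -0.36 to 1.13 for KO vs Het).

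The 2 repressors differed in sign against Het. E2f7 was called higher in KO relative to Het (log2 2.27, SE 0.78, adjusted p = 0.0323) from 0.838 ± 0.303 CPM in KO and 0.166 ± 0.218 CPM in Het. This call was lost on leaving out Het 1, Het 2, Het 3, KO 4, KO 5 or KO 6 alone, without KO 5 and KO 6 (log2 2.15, adjusted p = 0.120), and without the filter. Without Het 4, E2f7 was called higher in KO_drug against Het (log2 2.99, adjusted p = 0.0401). E2f8 stood at 1.61, 2.19, 0.552 and 1.27 CPM in KO_drug 1 to 4, 0.704, 2.43, 2.19 and 1.94 CPM in KO 2, 4, 5 and 6, and 3.66, 2.75, 5.40 and 3.42 CPM in Het 1 to 4. Every Atp7b-/- liver, treated or not, was below the lowest Het library, and E2f8 was called lower in KO_drug relative to Het (log2 -1.43, SE 0.43, adjusted p = 0.0309) while KO missed the threshold (log2 -1.07, SE 0.42, adjusted p = 0.0555). The KO_drug call was lost on leaving out KO_drug 1 (log2 -1.51, adjusted p = 0.0538), KO_drug 3, KO_drug 4, Het 1, Het 3 or Het 4. Cyclin E2 (Ccne2) rose in KO at 3.04 ± 0.986 CPM, against 1.01 ± 0.501 CPM in Het (log2 1.59, SE 0.54, adjusted p = 0.0308), and cyclin E1 (Ccne1) was at most 1.54 CPM in every library and was not called. The call of Ccne2 was lost without KO 5 and KO 6 (log2 1.5, adjusted p = 0.0963) and on leaving out Het 2, Het 3, KO 4 or KO 5 alone, and without KO_drug 1 Ccne2 was called lower in KO_drug against KO (log2 -1.77, adjusted p = 0.0315).

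Uhrf1 and Dnmt1 copy DNA methylation onto the new strand, with Uhrf1 recognising hemimethylated sites and Dnmt1 methylating them. Uhrf1 stood at 6.21, 0.990, 0 and 0 CPM in KO_drug 1 to 4, 3.87, 6.02, 6.22 and 6.89 CPM in KO 2, 4, 5 and 6, and 0.309, 0.624, 0.529 and 0.561 CPM in Het 1 to 4. KO_drug 1 was at KO levels, KO_drug 2 was above the Het range, and KO_drug 3 and 4 had no count. Uhrf1 was 11.2-fold higher in KO relative to Het (log2 3.49, SE 1.05, adjusted p = 0.0175), a call that DESeq2 did not make and that was lost without KO 5 and KO 6 (log2 3.21, adjusted p = 0.0650). KO_drug against KO was not called (log2 -1.66, SE 0.93, adjusted p = 0.228), but without KO_drug 1 it was (log2 -4.07, adjusted p = 0.00554). Dnmt1 stood at 16.9, 16.7, 8.77 and 11 CPM in KO_drug 1 to 4, 24.6, 21.5, 29.6 and 21.5 CPM in KO 2, 4, 5 and 6, and 6.96, 13.7, 12.6 and 11.4 CPM in Het 1 to 4. It was 2.18-fold higher in KO relative to Het (log2 1.12, SE 0.24, adjusted p = 0.00248). Treated livers were 1.82-fold lower than KO (log2 -0.86, SE 0.24, adjusted p = 0.0232), and in each case the groups did not overlap. The fall was lost without KO 5 and KO 6 (log2 -0.74, adjusted p = 0.0967) and on leaving out KO 5, KO_drug 3 or KO_drug 4 alone.

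To set the replication genes beside the rest of the cell cycle, 4 lists of other genes were counted in the same fit. The shares of all tested genes were 23% higher and 17.7% lower in KO against Het. They were 8.8% higher and 11% lower in KO_drug against KO, and 13% higher in KO_drug against Het. Of 28 genes of mitosis, 28 rose in KO against Het (median log2 4.40) and 25 were called higher in KO_drug against Het (median log2 3.96), while 2 fell in KO_drug against KO (Foxm1 and Top2a, median of the list -0.55). Summed over the list, the level was 452, 209, 219 and 253 CPM in KO_drug 1 to 4, 323, 345, 566 and 450.1 CPM in KO 2, 4, 5 and 6, and 18.3, 36.6, 16.7 and 23.3 CPM in Het 1 to 4. KO_drug 2 to 4 thus stood below the KO range and far above the Het range for mitosis genes, whereas the same 3 livers stood in or below the Het range for the summed MCM subunits. Without KO_drug 1 the mitosis list had 25 of 28 genes called higher in KO_drug against Het (median log2 3.59), and the 6 MCM subunits had a median of -0.04. In KO_drug against KO, 10 of the 28 mitosis genes then fell (median log2 -0.80). All 6 MCM subunits fell there (median log2 -1.84), against 12.3% of all tested genes. The difference between the lists was not tested, and no cause is drawn from it.

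Of the mitosis genes named, Cdc20, the activator of anaphase, averaged 19.7 ± 4.72 CPM in KO_drug, 24.1 ± 5.94 CPM in KO and 0.647 ± 0.297 CPM in Het (log2 5.20, SE 0.30, adjusted p = 1.29e-07 for KO vs Het and log2 4.91, SE 0.30, adjusted p = 2.81e-07 for KO_drug vs Het). The mitotic kinase Aurka (log2 3.43 in KO vs Het and 3.01 in KO_drug vs Het) and the spindle protein Prc1 (log2 4.61 and 4.03) were called higher in both as well. Foxm1, a transcription factor of mitotic genes, fell 2.73-fold in KO_drug against KO (log2 -1.45, SE 0.30, adjusted p = 0.00618). Top2a, the topoisomerase that untangles chromosomes, stood at 28.7, 14.2, 10.4 and 12.6 CPM in KO_drug 1 to 4, 32.9, 33.8, 48.3 and 34.7 CPM in KO 2, 4, 5 and 6, and 1.13, 2.70, 1.16 and 2.24 CPM in Het 1 to 4 (log2 -1.18, SE 0.31, adjusted p = 0.0184 for KO_drug vs KO). Mki67, the proliferation antigen Ki-67, stood at 21.4, 3.44, 1.77 and 3.61 CPM in KO_drug 1 to 4, 24.0, 23.1, 32.1 and 22.5 CPM in KO 2, 4, 5 and 6, and 1.19, 4.99, 1.90 and 2.55 CPM in Het 1 to 4. It was called higher in KO relative to Het (log2 3.25, SE 0.67, adjusted p = 0.00209), and in KO_drug 2 to 4 it was in the Het range, unlike Cdc20 and Top2a. Mki67 was not called in KO_drug against KO (log2 -1.75, SE 0.62, adjusted p = 0.0640).

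**Figure D5:**
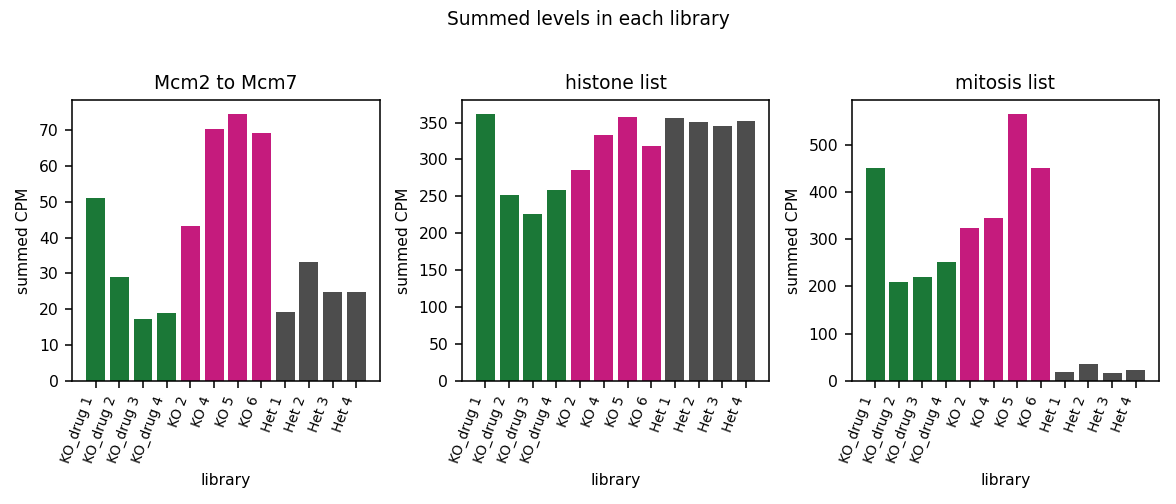
Bars give the summed CPM of Mcm2 to Mcm7, of the list of replication-dependent histones and of the mitosis list in each library (green KO_drug, magenta KO, grey Het). KO_drug 2 to 4 lie at 17.3 to 29.0 CPM for Mcm2 to Mcm7, where Het has 19.3 to 33.1 CPM, but at 209 to 253 CPM for mitosis, where Het has 16.7 to 36.6 CPM.

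Other replication genes, 40 that are not among the 43, gave 16 rises and 4 falls among 38 tested in KO against Het (median log2 0.46), and 8 falls and 1 rise in KO_drug against KO (median -0.25). The chromatin assembly genes Chaf1a (log2 -0.30 for KO_drug against KO, 3.47 for KO against Het) and Asf1b (log2 -0.03 and 4.12) rose in KO and were not called between KO_drug and KO. The same was true of Dbf4, the activator of the kinase Cdc7 that fires origins (log2 0.26 and 2.25). All 3 were called higher in KO_drug against Het, with log2 values of 3.17 for Chaf1a, 4.09 for Asf1b and 2.51 for Dbf4. Ctc1, which helps to copy telomere ends, fell in KO_drug against KO (log2 -0.97, SE 0.19, adjusted p = 0.00482), and so did Rnaseh2a, a subunit of ribonuclease H2 (log2 -0.49, SE 0.12, adjusted p = 0.0128). Without KO_drug 1, 13 of the 38 fell in KO_drug against KO (12.3% of all tested genes).

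Of 29 tested G1 cyclins, kinases and pocket proteins, 10 rose and 3 fell in KO against Het (median log2 0.12), and 2 rose and 4 fell in KO_drug against KO (median -0.03). These counts were not far from the background, at 23% higher and 17.7% lower in KO against Het over all tested genes. In KO_drug against KO the background was 8.8% higher and 11% lower. Cyclin D1 (Ccnd1), which drives exit from rest, averaged 53.3 ± 24.6 CPM in KO_drug, 123 ± 28.6 CPM in KO and 22.9 ± 5.28 CPM in Het. It was called in all 3 comparisons (log2 -1.21 for KO_drug against KO, 1.22 for KO_drug against Het and 2.43 for KO against Het). The pocket protein Rbl1 rose in KO (log2 1.95, SE 0.32, adjusted p = 0.000430) and fell in KO_drug against KO (log2 -1.37, SE 0.31, adjusted p = 0.00879). Lin9 and Lin54, parts of the complex that binds cell cycle promoters, and the kinase inhibitor Cdkn2c rose in KO, with log2 values of 1.56, 1.54 and 1.70. Cdkn1a, the p21 inhibitor of G1 kinases, stood at 45.5, 6.41, 81.6 and 42.3 CPM in KO_drug 1 to 4, 52.3, 80.7, 45.8 and 67.1 CPM in KO 2, 4, 5 and 6, and 2.53, 6.29, 21.3 and 17.3 CPM in Het 1 to 4 (log2 2.37, SE 0.66, adjusted p = 0.0121 for KO vs Het). All KO libraries lay above all Het libraries. KO_drug 3 had the highest Cdkn1a level of the 12, with KO 4 close to it, and KO_drug 2 lay in the Het range.

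Histone genes made in S phase had 16 rises and 5 falls among 39 tested in KO against Het (median log2 0.57) and 8 falls in KO_drug against KO (median -0.92). Their summed level was 226.4 to 361.9 CPM in KO_drug, 285.9 to 357.7 CPM in KO and 345.8 to 356.5 CPM in Het. The sum was thus not higher in KO than in Het, unlike those of the MCM and mitosis genes. Hist1h3h rose in KO (log2 2.6, SE 0.46, adjusted p = 0.000844) and fell in KO_drug against KO (log2 -1.79, SE 0.44, adjusted p = 0.0132), as did Hist1h2bn (1.00 and -1.16 on the log2 scale). The linker histone Hist1h1b rose in KO (log2 2.71, SE 0.57, adjusted p = 0.00228), whereas Hist1h1e fell (log2 -0.92, SE 0.19, adjusted p = 0.00213), and Hist2h2bb fell in KO_drug against KO (log2 -1.28, SE 0.30, adjusted p = 0.0113). Without KO_drug 1, 19 of the 39 fell in KO_drug against KO (12.3% of all tested genes). The copies of these genes are near identical, and the deposited counts may divide reads among them.

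Markers of other cells of the liver moved between the same groups, where 23% of all tested genes rose in KO against Het and 11% fell in KO_drug against KO. All 15 macrophage markers rose in KO against Het and 12 fell in KO_drug against KO. Their summed level was 548 to 1238 CPM in KO_drug, 1197 to 2727 CPM in KO and 480 to 655 CPM in Het. Of 7 tested markers of T and NK cells, 6 rose in KO and 4 fell in KO_drug against KO (3.54 to 7.01 CPM in KO_drug, 8.70 to 24.4 CPM in KO and 3.49 to 5.87 CPM in Het). Of 10 stellate cell and fibroblast markers, 6 rose in KO and 7 fell in KO_drug against KO (254 to 309 CPM in KO_drug, 449 to 799 CPM in KO and 288 to 328 CPM in Het).

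Lists of further cell types were counted in the same way. The background over all tested genes was 23% higher and 17.7% lower in KO against Het, and 8.8% higher in KO_drug against KO. Cholangiocyte markers had 4 rises and 1 fall among 9 in KO (25.2 to 38.0 CPM in KO_drug, 76.6 to 158 CPM in KO and 27.1 to 31.4 CPM in Het). Neutrophil markers had 3 rises among 4 tested, B cell markers 1 among 3, endothelial markers 3 among 9, and erythroid markers 1 rise and 1 fall among 8. The counts of B cell, endothelial and erythroid markers rest on few genes and were not far from the background. Hepatocyte markers ran the other way, with 10 of 12 lower in KO than in Het and 4 higher in KO_drug than in KO (67740 to 87990 CPM in KO_drug, 36670 to 65840 CPM in KO and 80240 to 133100 CPM in Het). Ly6g, Klrb1c and Ncr1 were at 0 in all KO_drug and all Het libraries, and Camp in all KO_drug libraries. Trac and Ighm were not analysed here. The part of these cells in the levels of the replication genes was not tested.

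Ratios of 2 members within a library do not depend on how libraries are scaled to each other. Of 12 pairs in 3 comparisons (36 exact two-sided permutation tests of 4 against 4 libraries, which cannot give a p under 0.0286), none passed after adjustment over the 36, where the smallest adjusted p was 0.103. An unadjusted p of 0.0286 was reached by 10 of them. In KO against Het, Mcm10 over Mcm2 was 11.6-fold lower, Pole over Pold1 2.74-fold higher and Uhrf1 over Dnmt1 4.92-fold higher, each with no overlap between the groups (exact permutation p = 0.0286, adjusted p = 0.103). In KO_drug against KO, Cdt1 over its inhibitor Gmnn was 2.60-fold lower and Tk1 over Tyms 1.95-fold higher, with the same p-values. In KO_drug against Het, E2f8 over E2f1 was 3.15-fold lower, Rfc1 over Rfc4 1.67-fold higher and Pole over Pold1 3.23-fold higher. The other 2 are Orc1 over Orc6 in the first 2 comparisons, where Orc1 was at 0 in a group.

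Set beside the promoters shown above, the 16 members with E2F letters had 12 rises among 15 tested in KO against Het (median log2 1.27), where 23% of all tested genes were called higher and 17.7% lower. Cdc6, E2f7 and Uhrf1 among them passed the filter only with their KO libraries, and the other 12 had 9 rises (median log2 1.14). The 18 members whose window lacks them had 5 rises and 1 fall (median 0.35), and the 9 with no promoter in the table had 3 rises (median 0.82). In KO_drug against KO, where 11% of all tested genes were called lower, 3 of the 15 fell among those with the letters (median -0.67) and 3 of 18 fell and 1 rose among those without (median -0.44). These counts are a description of genes that share a route of regulation and livers, and the difference between the classes was not tested.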

How the data were processed

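Liver RNA of 12 mice was sequenced per the labels' protocols, from TruSeq Stranded Total RNA libraries. FastQC 0.11.7, StringTie 2.1.3b and build mm10 were used, per the submitters' processing notes. No source used here names the aligner, the annotation release or the strand setting. Deposited by the authors were whole-number read counts per gene and library, not normalized, with an FPKM value for each, per the file headers. In the table, 3 columns without a name were not used.

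The counts were the main data. A filter on low genes (filterByExpr with a minimum count of 10 and a minimum total of 15) kept 13379 genes. With edgeR 4.0.16 (R 4.3.3), 1 quasi-likelihood fit over all 12 libraries, scaled by TMM, gave the 3 comparisons. Tests were two-sided, with Benjamini-Hochberg adjustment over all tested genes and a threshold of 0.05. CPM are counts scaled by the TMM library size, given as mean ± SD of 4 libraries. FPKM entered limma 3.58.1 on the log2 scale as an alternative, after a pseudocount of 0.1 or 1, where a fold change understates low genes, and DESeq2 1.42.0, limma-voom, other scalings and filters, and omitted libraries were further alternatives. The fit was tested on simulated data. A group at 0 was set to a floor of 3 counts, and such bounds and the Clopper-Pearson intervals cover counting error only.

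The members and the lists were chosen with earlier results of these data known. Named are all 43 members, Atp7b, Xist and Ddx3y as checks, Mki67, Top2a and Cdkn1a, and from each list of other cell cycle genes the called genes with the smallest adjusted p (3 in KO vs Het and 2 in KO_drug vs KO). By position, 10 members overlap another protein-coding gene, and their values may hold its reads.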

Additional observations from a re-analysis of the deposited data

Results flagged for a closer look

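In a group of 4 libraries, a single library was set apart where its gap to the next library took a larger share of the range of the group than Dixon's 95% critical value. For normally distributed values chance sets apart about 1 in 20 groups, which need not hold for genes with few counts. The 43 genes in 3 groups make 129 groups, and all but those of Orc1 in KO_drug and Het, which had no counts, were examined. Of the groups examined, 14 were set apart. Of these, 6 were KO_drug 1 standing above the other 3 treated livers. The gap was 0.862 of the range for Cdc6 (1.51 CPM, next 0.208 CPM), 0.879 for Mcm6 (8.88 CPM, next 1.56 CPM) and 0.833 for Gins3 (4.79 CPM, next 2.70 CPM). It was 0.849 for Pola2 (7.37 CPM, next 5.58 CPM), 0.926 for Rrm2 (21 CPM, next 3.29 CPM) and 0.84 for Uhrf1 (6.21 CPM, next 0.990 CPM).

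KO 2 stood below the other 3 KO livers for 4 genes. The gap was 0.927 for Gins2 (0.616 CPM, next 1.59 CPM), 0.874 for Gins4 (10.6 CPM, next 13.9 CPM), 0.972 for Rfc4 (1.09 CPM, next 2.99 CPM) and 0.837 for Tyms (8.30 CPM, next 12.3 CPM). KO_drug 2 stood above the other treated livers for Mcm10 (0.841; 66.8 CPM, next 22.8 CPM). Among the Het livers, Het 2 was lowest for Rfc2 (0.837; 19.8 CPM, next 20.6 CPM), Het 3 for Prim1 (0.966; 3.17 CPM, next 4.64 CPM) and Het 1 for Pole (0.877; 1.19 CPM, next 2.70 CPM).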

How the results depend on the processing

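The direction of no called member turned under any alternative. Of 779 alternative values of the 41 called member values, 152 lost the call with the same sign. Among all 2390 alternative member values 105 had another sign, each for a value not called as reported. Rfc1 was called higher in KO vs Het only where the scaling lifted the median of all genes, at log2 0.54 with total-count scaling, 0.55 with FPKM plus 0.1 (with or without the filter) and 0.47 with FPKM plus 1.

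Members called higher and lower in KO vs Het numbered 20 and 1. They were 32 and 1 with total-count scaling, 34 and 1 with either FPKM pseudocount, 33 and 0 with FPKM plus 0.1 and no filter (36 members at an unadjusted p under 0.05), and 8 and 1 without KO 5 and KO 6. DESeq2 and limma-voom with sample weights each called 2 lower, and a fit of only the 2 groups 3. In KO_drug vs KO the 2 higher and 7 lower became 0 and 18 with total-count scaling, 0 and 25 with FPKM plus 0.1, 0 and 27 with FPKM plus 1 and 0 and 23 without the filter (25, 30, 30 and 30 members at an unadjusted p under 0.05). They were 1 and 4 with only the 2 groups, and limma-voom called 16 lower. Without KO 5 and KO 6, 2 were called lower. In KO_drug vs Het the 3 lower became 0 with total-count scaling and with FPKM plus 0.1, with or without the filter, 1 with FPKM plus 1 and 7 with limma-voom (16, 18, 17, 14 and 21 members in either direction at an unadjusted p under 0.05).

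Leaving out 1 library at a time gave 15 to 23 higher and 1 lower in KO vs Het, 1 to 2 higher and 2 to 18 lower in KO_drug vs KO, and 5 to 8 higher and 1 to 4 lower in KO_drug vs Het. Without KO_drug 1 alone, 18 were lower in KO_drug vs KO and 5 higher in KO_drug vs Het. Without KO_drug 3, KO_drug 4 or KO 5 alone, 2 were lower in KO_drug vs KO, and without KO_drug 2, KO 4 or KO 6 alone, 3. The cause was not tested. Over all genes, 2654 calls in KO_drug vs KO became 4255 with total-count scaling, 4781 and 4923 with FPKM plus 0.1 and plus 1, 5269 without the filter, and 1632 to 2935 with 1 library left out. The 5448 calls in KO vs Het became 8324 with FPKM and no filter.

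Replicate numbers in the titles are shared by parts of the groups, and nothing states that they mark a litter or a day. Deviations of same-numbered libraries correlated between -0.07 and 0.165 over 8 pairs, with 4 of the 8 over 0.1, and 6 of the 8 KO_drug and Het libraries correlated best with their own number, a hint from the data and not from the design. Because not every pair was over 0.1, the numbers were not taken to pair the livers. With the replicate number as a block, which leaves 4 residual degrees of freedom, 7 members were called higher and 1 lower in KO vs Het, 1 higher and 0 lower in KO_drug vs KO, so that all 7 falls lost their call (7 members at an unadjusted p under 0.05) and 7 higher and 2 lower in KO_drug vs Het. All genes called in KO_drug vs KO were then 1741. Ratios of members changed sign in 23 of 408 alternative values. The share of promoters with E2F letters was 32.4% over the 250 bases before the start and 38.2% with 2 of the 4 forms. Counts under 1 CPM limit Orc1, Cdc6, Gins2, Ccne1, E2f7 and Uhrf1.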

Other observations

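Per library, the number of members above the highest Het library was 30 in KO_drug 1, 17 in KO_drug 2, 11 in KO_drug 3 and 10 in KO_drug 4, and 21, 33, 31 and 31 in KO 2, 4, 5 and 6. The number below the lowest Het library was 3, 10, 14 and 15 in KO_drug 1 to 4, and 8, 6, 5 and 4 in KO 2, 4, 5 and 6. Each of the 8 libraries held members on both sides of the Het range. The same counts were not made over all tested genes, so how far they exceed what any further library would show is not known. Of the 43 members, 4 had no count in KO_drug 3, against none in any KO library.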
